A study of Mus musculus with 37 samples.

Results

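The Rab GTPases and the genes named after them were followed through the hippocampus of 37 mice, each hybridised to its own Illumina MouseRef-8 V1.1 array. Members were all probes whose gene symbol on the platform is Rab followed by a digit, which gave 79 probes for 61 genes out of 24620 probes for 15968 named genes on the array. Of these, 69 probes for 53 genes belong to Rab GTPases, and 10 probes for 8 genes to proteins that act on or with them (*Rab3gap1*, *Rab3ip*, *Rab3il1* and the *Rab11fip* genes). The mice were females of a CSS15F2 intercross, in which only chromosome 15 segregates between alleles of the host strain C57BL/6J and of the donor strain A/J while all other chromosomes come from C57BL/6J, and were 3 to 4 months old. All had gone through behavioral tests before, and RNA came from punches of the left hippocampus that were combined for each mouse. The study searched for genes behind a behavioral locus on chromosome 15 and singled out *Ly6a*. None of the member genes lies on chromosome 15. Neither the genotype nor the behavior of an individual mouse entered the comparisons, so the mice form 1 group, their spread is the only replicate error, and no control group exists. The comparisons below therefore ask how the Rab probes varied from mouse to mouse, and whether they moved with *Ly6a*, with *Rab3a*, with the signal of the array, with markers of cell types, or with the BeadChip.

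Rab proteins are small GTPases that mark the membranes of the cell. Each sits on its own set of compartments, switches between a GTP-bound active form and a GDP-bound inactive form, and in the active form recruits effectors that move, tether and fuse vesicles. Exchange factors switch Rabs on, GTPase-activating proteins switch them off, and a geranylgeranyl transferase attaches the lipid that holds them on membranes. In neurons *Rab3a* is the abundant Rab of synaptic vesicles, *Rab5* proteins act on early endosomes, *Rab4* and *Rab11* proteins on the recycling of receptors to the surface, *Rab7* on late endosomes and *Rab6* on the Golgi apparatus.

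Between 5281 and 10724 probes were detected per array (detection p-value under 0.01, median 8704), and the median background-corrected signal ranged from 4.9 to 22.1. These differences in signal between arrays are large, and the number of detected probes is given beside the results that moved with it. Values are log2 intensities after a second background correction and quantile normalization, in which the marker probes that were detected on no array had means of 4.41 to 4.85. The arrays lay on 13 BeadChips, whose numbers form a chip set B of 11 arrays and a chip set A of 26 arrays. Markers of the hippocampus were present, with *C1ql2* and *Prox1* (dentate granule cells), *Fibcd1*, *Mpped1* and *Wfs1* (field CA1) and *Camk2a* detected on all 37 arrays. Another *Camk2a* probe (1740333) was detected on no array, and the dentate marker *Calb1* on 1. Of the CA3 markers, *Iyd* was detected on 34 arrays, *Grik4* on 30 and *Bok* on 37 or 14 by probe. Markers that the thalamus shares or defines, *Slc17a6* and *Tcf7l2* probe 5220113, were detected on all 37 arrays as well, and the choroid plexus gene *Ttr* on 36. *Tcf7l2* probe 2190348 and the *Lef1* probes were detected on none, and the choroid plexus gene *Folr1* on 6. *Snap25*, a protein of all presynaptic terminals, had its 2 probes detected on 0 and 1 arrays, so that a probe below the detection threshold is described only as not detected.

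Of the 79 member probes, 47 for 41 genes reached detection on 19 or more arrays (59.5%, against 34.7% of all probes), 28 of them on every array and 19 on 19 to 36 arrays. A further 6 were detected on 1 to 18 arrays and 26 on none. The 47 probes are called the detected Rab probes, and 43 of them stand for 37 GTPases.

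Among the secretory Rabs, 4 of 8 probes were detected. *Rab3a*, *Rab3d* and *Rab27a* were detected on all 37 arrays and *Rab3b* on 33. The probes of *Rab3c* and both of *Rab27b* were detected on no array, and that of *Rab37* on 1. *Rab3a* had a lowest value of 7.37, a median of 8.65 and a highest of 9.63, a spread of 4.78-fold over mice. *Rab3b* ranged from 5.36 through a median of 6.87 to 7.49, and *Rab3d* from 8.07 through 8.54 to 9.01. *Rab27a*, which acts in the docking of secretory granules, ranged from 6.88 through 7.58 to 8.10. *Rab3b* was below the detection threshold in 4 mice and the other 3 in none.

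Of the early endosome Rabs, 6 of 9 probes were detected. *Rab5a* was detected on no array, so this subfamily was read from *Rab5b* and *Rab5c*. *Rab5c* ranged from 8.21 through a median of 9.87 to 10.86, a 6.28-fold spread. The *Rab5b* probes 6900731 and 1980273 ranged from 5.71 through 7.13 to 8.49 and from 4.64 through 6.93 to 8.13. *Rab31*, a relative of *Rab5* that also acts at the trans-Golgi network, was the steadiest of all members, with a lowest value of 10.10, a median of 10.46 and a highest mouse 1.86-fold above the lowest. *Rab21*, which carries integrins into endosomes, ranged from 6.57 through 7.69 to 8.74, and *Rab22a* from 4.43 through 6.45 to 7.17, where its lowest mice lay at the level of undetected probes.

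Of the recycling Rabs, 7 of 10 probes were detected, *Rab4a*, *Rab4b*, *Rab14*, *Rab15*, *Rab35* and 1 of 2 *Rab11b* probes on all 37 arrays and *Rab11a* on 20. *Rab11a* ranged from 4.86 through 5.57 to 6.36 and *Rab11b* from 12.03 through 13.05 to 13.37. *Rab14* ranged from 10.48 through 11.07 to 11.43. Of the *Rab11* effectors, which link this Rab to motors and tethers, *Rab11fip3* (7.62, median 8.63, to 9.47) and *Rab11fip5* (9.36, median 9.92, to 10.20) were detected on all arrays, *Rab11fip4* on 18, and *Rab11fip1* and *Rab11fip2* on none. These recycling probes were among the less variable members, with a median SD of 0.39 and no SD above 0.41.

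Of the ER and Golgi Rabs, 11 of 17 probes were detected, of the late endosome and lysosome Rabs 8 of 12, and of the exocytic and polarity Rabs 5 of 10. The Golgi Rab *Rab6a* had one probe that was steady (3840463, from 9.05 through 9.50 to 10.11) and one that was not (4780731, from 4.73 through 7.50 to 10.42). Its brain-enriched relative *Rab6b* ranged from 10.87 through 12.08 to 12.55. *Rab2a*, which acts between ER and Golgi, ranged from 12.76 through 13.07 to 13.54. *Rab8a*, an exocytic Rab also known for the primary cilium, ranged from 6.46 through 7.40 to 8.55. *Rab10*, an exocytic Rab of growing axons, ranged from 4.49 through 6.53 to 7.84, and *Rab36* from 4.60 through 6.91 to 7.58. In the last 2 the lowest mice again lay at the level of undetected probes.

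The spread over mice was wide within the family. The median SD of the 47 detected Rab probes was 0.41 on the log2 scale, close to the 0.44 of all 8541 detected probes. The steadiest were *Rab31* (SD 0.19), *Rab2a* (SD 0.19), *Rab11fip5* (SD 0.21) and *Rab14* (SD 0.21), whose highest and lowest mice differed by at most 1.93-fold. The most variable were *Rab6a* probe 4780731 (SD 1.58), *Rab22a* (SD 0.88), *Rab5b* probe 1980273 (SD 0.82), *Rab12* (SD 0.79), *Rab10* (SD 0.75) and *Rab36* (SD 0.75). *Rab6a* probe 4780731 had a larger SD than 99.7% of all detected probes, and its lowest mouse, at 4.73, lay at the level of undetected probes, so that no fold over mice is given. None of the 6 most variable probes was detected on all 37 arrays (26 to 33 arrays), whereas the 4 steadiest were. When each array was only centred on its median instead of quantile normalized, the median SD was 0.69 for the members and 0.68 for all probes.

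**Figure D1:**
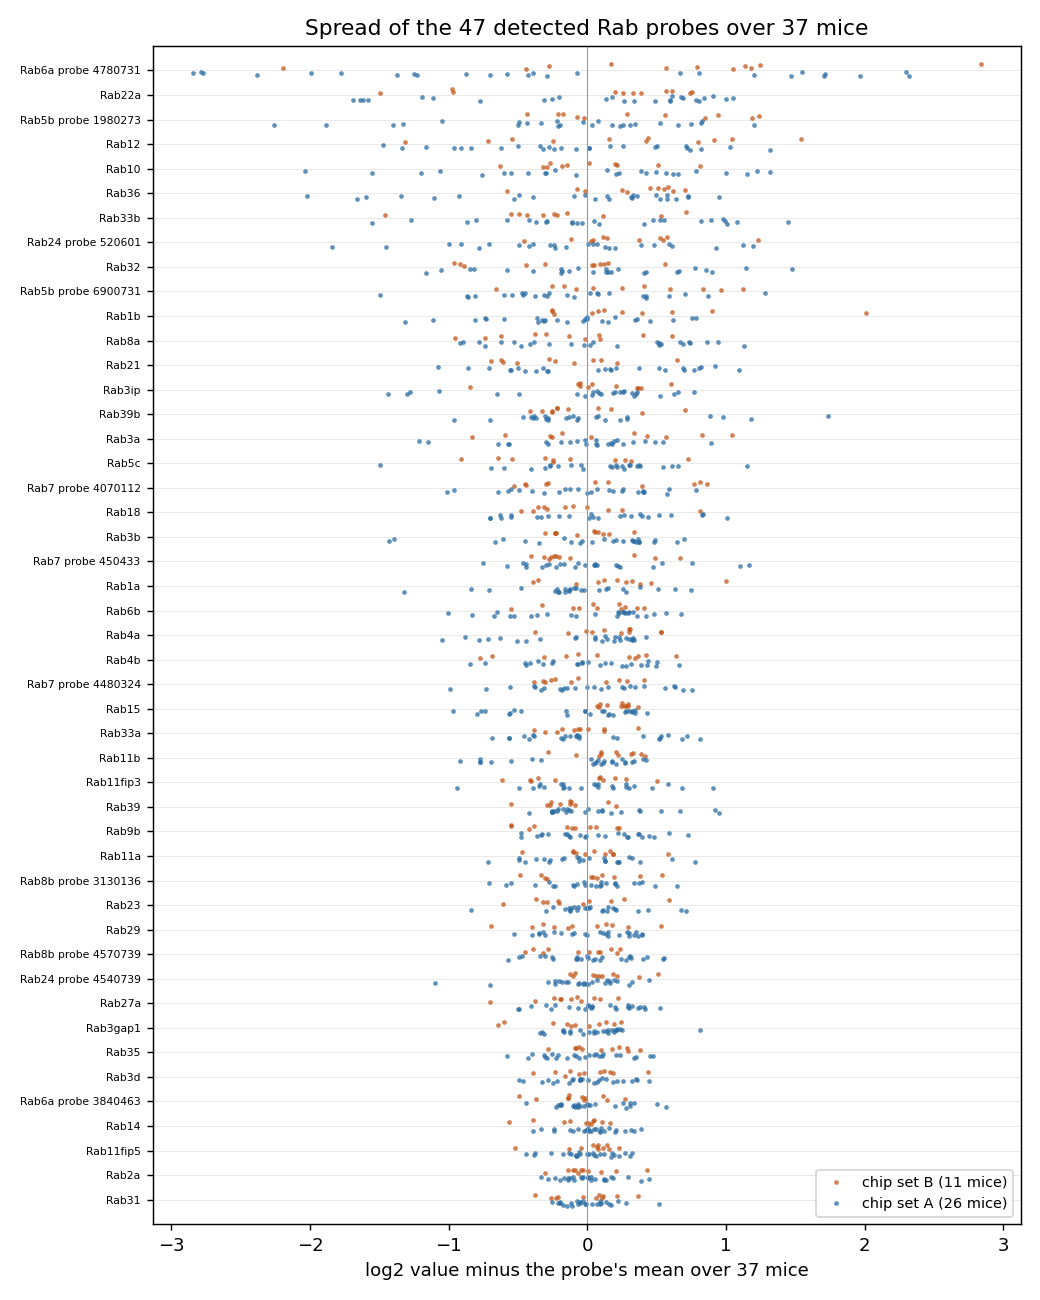
Values of the 47 detected Rab probes in each of 37 mice, as log2 value minus the mean of the probe, with probes ordered by SD from *Rab31* at the bottom (0.19) to *Rab6a* probe 4780731 at the top (1.58). Points are mice, coloured by chip set B (11) and chip set A (26), and the points of both sets overlap in every row.

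Some Rab probes moved with *Rab3a* over mice, at a share like that of all probes. Mice with more *Rab3a* had more *Rab5c*, *Rab4b*, *Rab33b* and *Rab35*, and less *Rab18*, *Rab12* and signal of *Rab6a* probe 4780731. Slopes were fitted with limma across all detected probes, with Benjamini-Hochberg adjustment over all of them, and are log2 changes per log2 unit of *Rab3a*. Of the 46 other detected Rab probes, 13 passed an adjusted p-value of 0.05, which is 28.3% against 28.6% of all 8540 probes. Of the 13, 5 had a positive slope and 8 a negative one, against 14.4% and 14.3% of all probes. As a share the Rab probes were thus like other probes, so the slopes below describe single members, not the family. With arrays only centred on their median, 42 of 46 passed, all with positive slopes, and 89.8% of all probes did, so that the negative directions below hold for quantile normalized values and for the normalized values of the authors, not for centred ones.

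*Rab5c*, the early endosome GTPase, followed *Rab3a* most closely, with a slope of 0.82 ± 0.10 (SE, adjusted p = 3.35e-07). The mouse with the least *Rab3a* (7.37) also had the least *Rab5c* (8.21), and the mouse with the most *Rab3a* (9.63) had 10.43, the second highest *Rab5c* of all. *Rab4b*, a Rab of rapid recycling, had a slope of 0.57 ± 0.10 (adjusted p = 6.28e-05), with 7.47 in the mouse of least *Rab3a* and 8.34 in the mouse of most. *Rab35*, which returns cargo from endosomes to the surface, had a slope of 0.34 ± 0.07 (adjusted p = 0.000604), and its lowest mouse (9.59) was again the mouse of least *Rab3a*. *Rab33b*, a Golgi Rab with a part in autophagosome formation, had a slope of 0.89 ± 0.18 (adjusted p = 0.00044), with 6.51 and 8.09 in the same mice. The slope of *Rab5c* passed in each chip set taken alone, 0.76 in set B (adjusted p = 0.0167) and 0.91 in set A (adjusted p = 4.25e-05). *Rab33b* passed in both sets too, while *Rab4b* (0.57, adjusted p = 0.0621) and *Rab35* (0.22, adjusted p = 0.266) kept their direction but missed the threshold among the 11 arrays of set B. The slopes of all 4 were positive and past the threshold within chips and with the number of detected probes in the fit. They also passed with arrays only centred on their median. There 42 of 46 Rab probes passed, all positive, so that setting does not set these 4 apart.

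Shared regulation of the genes was not tested, and members with other called slopes are not shown. *Rab33b*, *Rab5c*, *Rab4b* and *Rab35* were picked by their positive slopes on *Rab3a* in these data. The start regions of these genes and of *Rab3a* are given as a description. They hold 300 bases across an annotated start, most of them before it, are taken from RefSeq (GRCm38.p6), and of 61 member genes 50 had an entry. For *Rab3a*, which has several entries, the first is given. Each is written 5′ to 3′ on the strand of the gene, and capitals mark the GC box, GGGCGG or CCGCCC on the other strand.
*Rab3a* chr8:70754453-70754752 (+ strand): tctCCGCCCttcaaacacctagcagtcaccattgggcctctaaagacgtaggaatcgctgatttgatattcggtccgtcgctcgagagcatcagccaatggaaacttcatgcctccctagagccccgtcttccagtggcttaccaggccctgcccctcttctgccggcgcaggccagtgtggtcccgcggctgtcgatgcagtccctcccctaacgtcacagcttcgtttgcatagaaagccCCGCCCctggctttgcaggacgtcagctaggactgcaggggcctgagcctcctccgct
*Rab33b* chr3:51483716-51484015 (+ strand): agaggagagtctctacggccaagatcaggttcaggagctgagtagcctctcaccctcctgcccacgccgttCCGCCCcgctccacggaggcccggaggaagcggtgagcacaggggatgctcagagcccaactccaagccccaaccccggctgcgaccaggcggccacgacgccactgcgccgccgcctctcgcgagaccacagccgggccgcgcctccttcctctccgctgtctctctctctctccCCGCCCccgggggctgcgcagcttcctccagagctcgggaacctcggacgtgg
*Rab5c* chr11:100738166-100738465 (- strand): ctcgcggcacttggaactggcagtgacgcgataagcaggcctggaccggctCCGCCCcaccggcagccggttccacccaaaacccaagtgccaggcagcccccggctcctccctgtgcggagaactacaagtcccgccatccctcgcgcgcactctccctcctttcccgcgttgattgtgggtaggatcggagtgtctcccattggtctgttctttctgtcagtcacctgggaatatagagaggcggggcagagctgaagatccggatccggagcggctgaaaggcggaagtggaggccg
*Rab4b* chr7:27178834-27179133 (- strand): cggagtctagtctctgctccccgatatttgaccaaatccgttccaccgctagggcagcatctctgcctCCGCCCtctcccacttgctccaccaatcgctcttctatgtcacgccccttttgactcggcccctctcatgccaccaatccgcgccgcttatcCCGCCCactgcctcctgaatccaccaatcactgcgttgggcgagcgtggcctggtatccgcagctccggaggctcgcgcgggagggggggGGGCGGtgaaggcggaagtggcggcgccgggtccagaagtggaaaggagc
*Rab35* chr5:115631737-115632036 (+ strand): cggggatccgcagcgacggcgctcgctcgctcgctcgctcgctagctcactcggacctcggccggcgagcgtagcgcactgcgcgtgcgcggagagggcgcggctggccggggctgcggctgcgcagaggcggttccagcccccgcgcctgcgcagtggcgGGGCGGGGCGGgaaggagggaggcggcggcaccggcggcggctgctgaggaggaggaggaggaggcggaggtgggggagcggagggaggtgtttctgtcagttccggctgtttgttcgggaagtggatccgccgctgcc
The 5 regions printed held the GC box, with 2 matches in *Rab3a*, 2 in *Rab33b*, 1 in *Rab5c*, 3 in *Rab4b* and 2 in *Rab35*, the last sharing a base. The GC box was present in 46 of 67 start regions of member genes (68.7%) and in 35.7% of all 32851 start regions, and the GC content was also higher in members (median 61.3%) than in all (median 52.7%). The share in the family and the whole set is the background for the 5 regions. None of the 5 held the cyclic AMP response element TGACGTCA, the E-box CACGTG or the TATA box TATAAA on either strand, while *Rab3a*, *Rab5c* and *Rab4b* held the CCAAT box on either strand, which is in 37.3% of member regions and 37.4% of all. The other *Rab3a* entry, chr8:70754852-70755151 on the same strand, held neither the GC box nor the CCAAT box. A match describes letters, not a site that is bound.

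Members with negative slopes came from 5 of the roles, and *Rab18*, a Rab of lipid droplets and the ER, had the smallest p-value among them with a slope of −0.53 ± 0.13 (SE, adjusted p = 0.00191). *Rab12*, which directs receptors to lysosomes, had a slope of −0.77 ± 0.21 (adjusted p = 0.00726) and *Rab6a* probe 4780731 of −1.53 ± 0.43 (adjusted p = 0.00747). *Rab24* split by probe, with 0.25 ± 0.09 (adjusted p = 0.0383) for probe 4540739 and −0.66 ± 0.19 (adjusted p = 0.00866) for probe 520601. *Rab1a* (−0.38) and *Rab31* (−0.19) also passed, as did *Rab22a* and *Rab23*. In the mouse with the most *Rab3a*, *Rab18* was at 8.69 and *Rab6a* probe 4780731 at 7.75. In the mouse with the least *Rab3a* they were at 9.52 and 9.29, which follows the sign of each slope. Within chips the slopes of *Rab12* (−1.82) and of *Rab6a* probe 4780731 (−3.72) were steeper. These negative slopes turned positive when arrays were only centred on their median, at 0.49 for *Rab18*, 0.48 for *Rab12* and 0.85 for *Rab6a* probe 4780731.

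**Figure D2:**
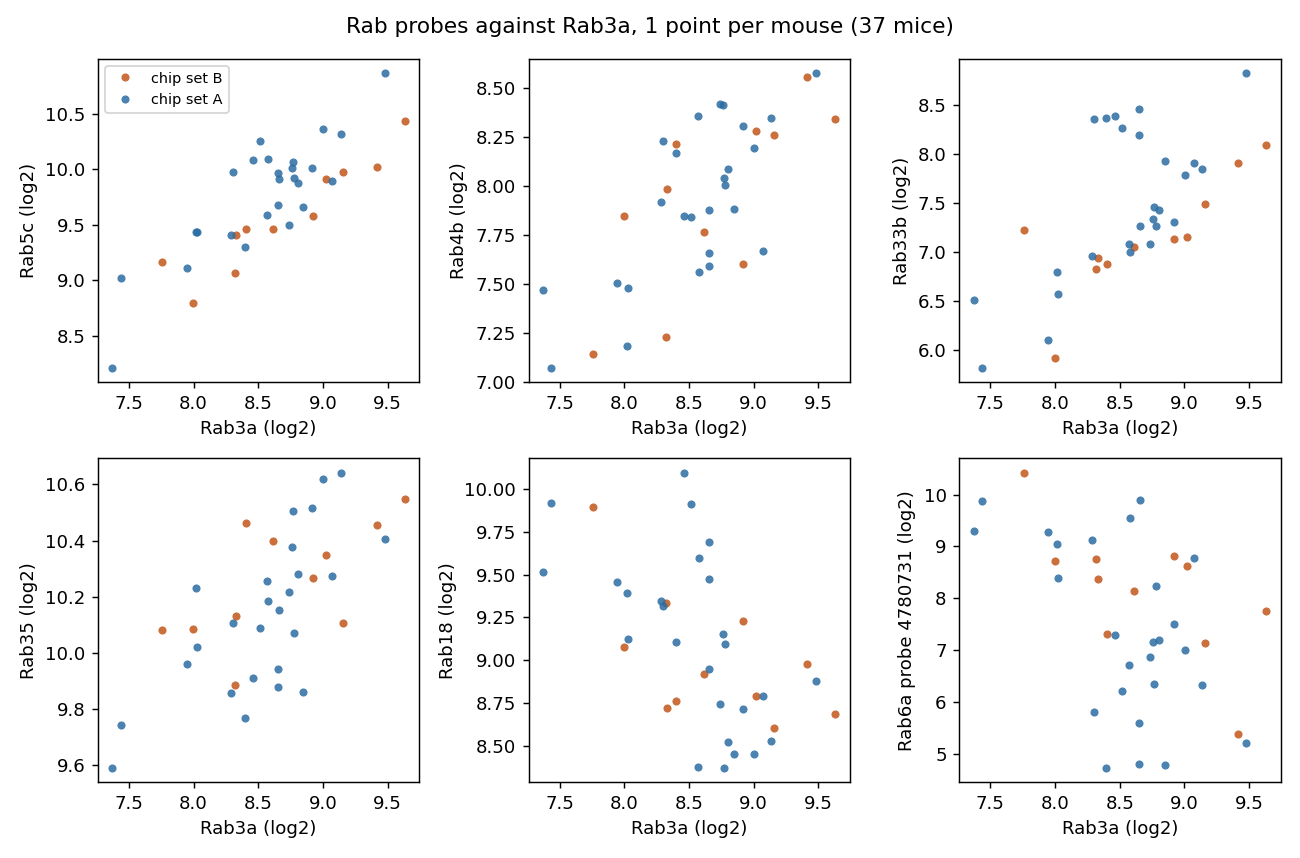
Log2 values of 6 Rab probes against the log2 value of *Rab3a*, 1 point per mouse, coloured by chip set B and chip set A. *Rab5c*, *Rab4b*, *Rab33b* and *Rab35* climb with *Rab3a* (slopes 0.82, 0.57, 0.89 and 0.34), and *Rab18* and *Rab6a* probe 4780731 decline (−0.53 and −1.53), with mice of both sets along each trend.

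*Rab3a* itself was only weakly related to the signal of the array (r = −0.29 with the number of detected probes, n = 37, a description). With the number of detected probes as a covariate, 16 of 46 Rab probes passed with *Rab3a*, against 25.3% of all probes, 9 positive and 7 negative, against 14.0% and 11.3%. Of the 13 called without the covariate, 10 were among these 16, *Rab5c* with a slope of 0.82 and *Rab6a* probe 4780731 with −0.90 among them. The late endosome Rab *Rab7* then split by probe, with 0.39 for probe 4480324 (adjusted p = 0.00449) and −0.37 for probe 450433 (adjusted p = 0.0104). *Rab10* (0.67) and the exchange factor *Rab3ip* (0.39) also passed in that fit.

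*Ly6a*, the gene that the study singled out, moved with Rab probes in both directions. No Rab probe passed the threshold once the number of detected probes was in the fit. *Ly6a* encodes the surface protein Sca-1, and ranged from 7.53 through a median of 9.70 to 11.85 over the mice (mean 9.70 ± 0.99, SD, n = 37). Of 47 detected Rab probes, 22 passed with *Ly6a*, against 56.6% of all 8540 probes. A positive slope was called for 8 and a negative one for 14, against 24.1% and 32.5% of all probes. The ER and Golgi Rabs gave 5 positive and 4 negative calls among 11 probes, the recycling Rabs 3 negative and no positive calls among 7. These counts are small, and differences between roles were not tested. The number of detected probes was lower in mice with more *Ly6a* (r = −0.66, n = 37). With that number as a covariate, 0 of 47 Rab probes passed in limma, and 0.0937% of all probes did. At an unadjusted p-value under 0.05 there were 10 Rab probes, against 1964 of all 8540. With arrays only centred on their median 0 Rab probes passed as well (4 unadjusted, 854 of all 8540 probes). Of all probes 3.92% did, all of them higher.

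Largest among the positive slopes were *Rab8a* (0.41 ± 0.07, SE, adjusted p = 2.35e-05), *Rab33b* (0.39 ± 0.10, adjusted p = 0.00116) and *Rab21* (0.39 ± 0.07, adjusted p = 2.23e-05). *Rab33a*, the X-linked relative of *Rab33b*, had the smallest p-value (0.30 ± 0.05, adjusted p = 3.3e-06). In the mouse with the most *Ly6a* (11.85), *Rab8a* stood at 8.36, and in the mouse with the least (7.53) at 6.50, the second lowest *Rab8a* of all. With the covariate the slope of *Rab8a* was 0.08 ± 0.06 (adjusted p = 0.429), that of *Rab21* 0.15 ± 0.07 (adjusted p = 0.21) and that of *Rab33a* 0.17 ± 0.05 (adjusted p = 0.0811). *Rab33a* thus kept the strongest slope relative to its error, without passing. *Rab29*, a Rab that binds the kinase LRRK2, and *Rab39*, linked to autophagy, had smaller positive slopes of 0.18 and 0.19.

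Negative slopes on *Ly6a* were led by *Rab6a* probe 4780731 (−0.94 ± 0.21, SE, adjusted p = 0.000255), *Rab22a* (−0.53 ± 0.12, adjusted p = 0.00022) and *Rab36* (−0.49 ± 0.10, adjusted p = 6.76e-05). *Rab12* was next in size (−0.42). *Rab6b*, *Rab15* and *Rab11b* had smaller slopes of −0.28, −0.27 and −0.25 but were among the 6 with the smallest p-values. *Rab15* is a neuronal Rab of recycling endosomes, and *Rab11b* the brain-enriched form of *Rab11*. The mouse with the most *Ly6a* had 4.81 for *Rab6a* probe 4780731, the level of an undetected probe, and the mouse with the least *Ly6a* had 9.04. With the covariate the slopes were −0.15 ± 0.20 for *Rab6a* probe 4780731 (adjusted p = 0.676), −0.12 ± 0.12 for *Rab22a* (adjusted p = 0.557) and −0.13 ± 0.06 for *Rab6b* (adjusted p = 0.212). Among the 11 arrays of chip set B alone 0 Rab probes passed (3 unadjusted, 270 of all 8540 probes). A difference of the *Ly6a* slope between chip sets was found for 0 of 47 (4 unadjusted, 899 of all 8540 probes).

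**Figure D3:**
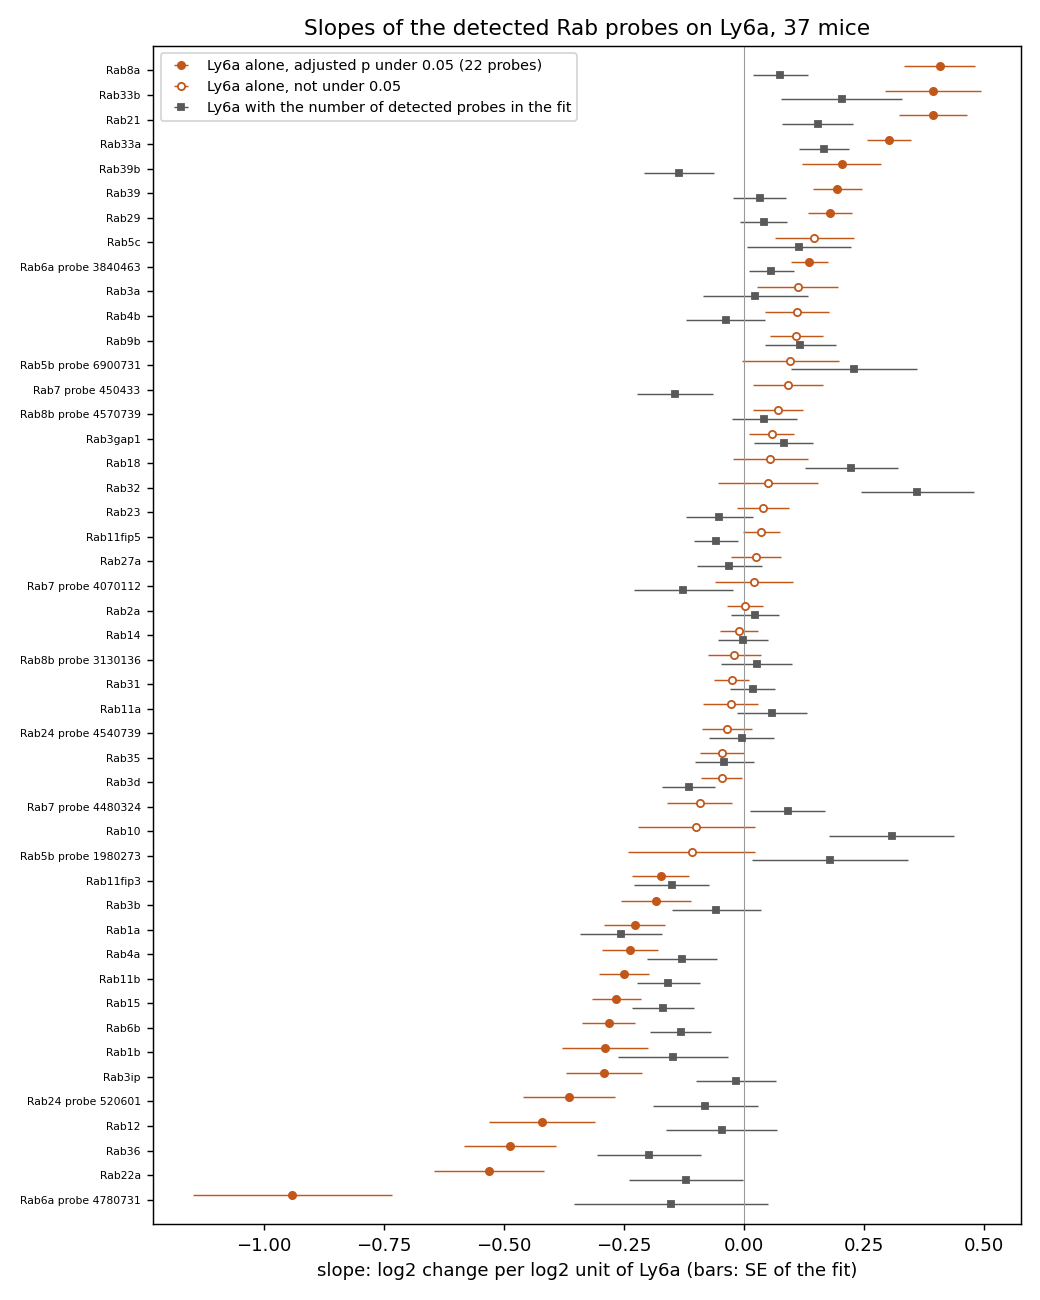
Slopes of the 47 detected Rab probes on *Ly6a* over 37 mice, as log2 change per log2 unit of *Ly6a*, with SE as bars. Circles are the fit on *Ly6a* alone, filled for the 22 probes that passed, and squares the fit that also holds the number of detected probes, where *Rab6a* probe 4780731 has −0.15, against −0.94 without it, and no probe passed.

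The number of detected probes was tested on its own, as a measure of array signal. Slopes are log2 changes per 1000 detected probes. Of 47 Rab probes 27 passed, against 67.0% of all 8541 probes. On arrays with more detected probes 16 were higher and 11 lower, against 37.6% and 29.4% of all probes. With arrays only centred on their median 45 of 47 passed, all higher, against 91.9% of all probes, or 90.5% higher. *Rab6a* probe 4780731 had the steepest slope (0.92 ± 0.11, SE, adjusted p = 1.66e-09) and, with *Rab22a* (0.50 ± 0.06), *Rab12* (0.42 ± 0.06) and *Rab3ip* (0.30 ± 0.04), the smallest p-values among the higher probes. In that order these probes were detected on 30, 26, 27 and 30 arrays. A detected probe is itself part of the count, so their slopes are not independent of it. *Rab36* (0.40) and *Rab24* probe 520601 (0.34) had steeper slopes than *Rab3ip* with larger p-values. In the other direction *Rab8a* had a slope of −0.39 ± 0.03 (adjusted p = 1.99e-13), *Rab21* of −0.33 ± 0.04, *Rab39b* of −0.30 ± 0.04 and *Rab33a* of −0.22 ± 0.03. The array with the fewest detected probes (5281) had the highest *Rab8a* of all mice, 8.55, and the array with the most (10724) had 6.52. *Rab12* went the other way, with its lowest value of all mice, 4.79, on the array of 5281 probes and 7.29 on that of 10724. Array signal and RNA of the mouse cannot be told apart in these data, since each mouse has 1 array. In such tissue samples, fewer cells of a type and less RNA per cell cannot be told apart either.

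The 2 probes of *Rab6a* moved against each other (r = −0.70, n = 37, a description, as are all r below). In chip set B r was −0.81 and in set A −0.65, within chips −0.69, and given the number of detected probes −0.38. Both carry the same reference transcript on the platform, so they cannot be assigned to different isoforms here. Probe 3840463 had a slope of −0.11 ± 0.03 per 1000 detected probes (SE, adjusted p = 0.000175), opposite to the 0.92 of probe 4780731. With arrays only centred on their median the pair was positively correlated (0.60), below the median absolute r of 0.67 over all pairs of detected probes.

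**Figure D4:**
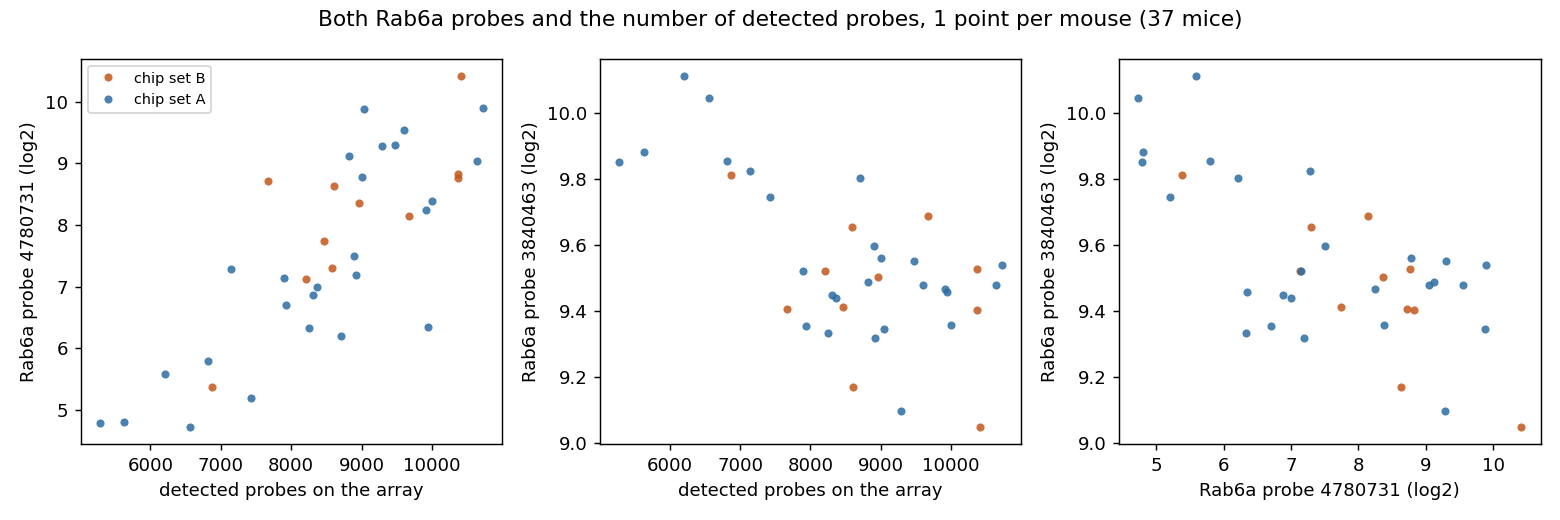
Log2 values of *Rab6a* probes 4780731 and 3840463 against the number of detected probes on the array, and against each other, 1 point per mouse, coloured by chip set B and chip set A. Probe 4780731 climbs with the number of detected probes (slope 0.92 per 1000), probe 3840463 declines (−0.11), and the pair has r = −0.70.

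Other genes with several detected probes ranged from close likeness to opposition. The probes of *Rab8b* (r = 0.85) and of *Rab5b* (r = 0.74) moved together, those of *Rab24* hardly (r = 0.26). Without the 2 mice furthest from the median of the *Rab24* probe detected on more arrays, r was −0.30. The 3 *Rab7* probes gave r = −0.65, −0.28 and 0.35 in their pairs. Only the first was much the same within chips (−0.55) and without 2 mice chosen in the same way (−0.60). The second was −0.03 and −0.55 and the third 0.05 and 0.56. With arrays only centred on their median the *Rab7* pairs had 0.11, 0.33 and 0.70, in that order. The pairs of *Rab24*, *Rab8b* and *Rab5b* then had 0.82, 0.97 and 0.96. *Rab7* probe 4480324 was detected on all arrays and the other two on 24 and 29, which leaves their values nearer to background. A level of *Rab6a*, *Rab7* or *Rab24* therefore depends on the probe that is read.

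Paralogs, copies of a gene within a subfamily, ranged from unrelated to moderately correlated. Of the 11 such pairs for which r is given, 5 had an absolute r of 0.49 to 0.67, and the other 6 of at most 0.27. The Golgi Rab *Rab6b* had r = 0.67 with *Rab6a* probe 4780731 and −0.58 with probe 3840463, or 0.19 and −0.20 given the number of detected probes. *Rab33a* and *Rab33b* had r = 0.65 (0.39 given the number of detected probes), *Rab39* and *Rab39b* 0.66 (0.15) and *Rab1a* and *Rab1b* 0.49 (0.42). *Rab4a* and *Rab4b* had −0.13, *Rab3a* and *Rab3d* −0.07, and *Rab5c* had −0.15 and −0.01 with the *Rab5b* probes. *Rab8a* had −0.27 and 0.09 with the *Rab8b* probes. The values of *Rab3b*, *Rab11b*, *Rab15*, *Rab22a* and *Rab3ip* were better described by a mixture of Gaussian components than by a single one by over 10 units of the Bayesian information criterion, so no pooled r is given for their pairs. *Rab36* (9.37), *Rab39* (8.21) and *Rab4a* (8.19) came close to that limit, and *Rab39b* (3.39) and *Rab24* probe 4540739 (3.03) also gained, and r is given for their pairs. Over all 1081 pairs of detected Rab probes, these included, the median absolute r was 0.27, against 0.32 over all pairs of detected probes.

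Among the pairs for which r is given, the closest joined Rabs of different compartments. The pairs of *Rab11b* with *Rab4a* and with *Rab15*, all recycling Rabs, were also among the 6 largest, but no pooled r is given for them. *Rab21* and *Rab8a* had r = 0.94, in chip set B 0.95 and in set A 0.94, and 0.87 given the number of detected probes. *Rab21* also followed *Rab33a* (0.88, or 0.68 given that number), and *Rab12* followed *Rab6a* probe 4780731 (0.90, or 0.75). *Rab24* probe 520601 and *Rab6a* probe 4780731 had 0.88 (0.75). The most opposed were *Rab33a* and *Rab6b* (−0.90, or −0.76), *Rab6a* probe 4780731 and *Rab8a* (−0.86, or −0.51), and *Rab36* and *Rab39* (−0.86, or −0.67). With arrays only centred on their median these opposed pairs had r of 0.61, 0.04 and 0.59, while *Rab21* and *Rab8a* stayed at 0.90. In that setting the median absolute r over all pairs of detected probes was 0.67, and 25.5% of them had an absolute r over 0.8. Of the Rab pairs, 25 (2.31%) had an absolute r over 0.8, and 6 (0.555%) given the number of detected probes, against 2.51% and 0.248% of all pairs.

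**Figure D5:**
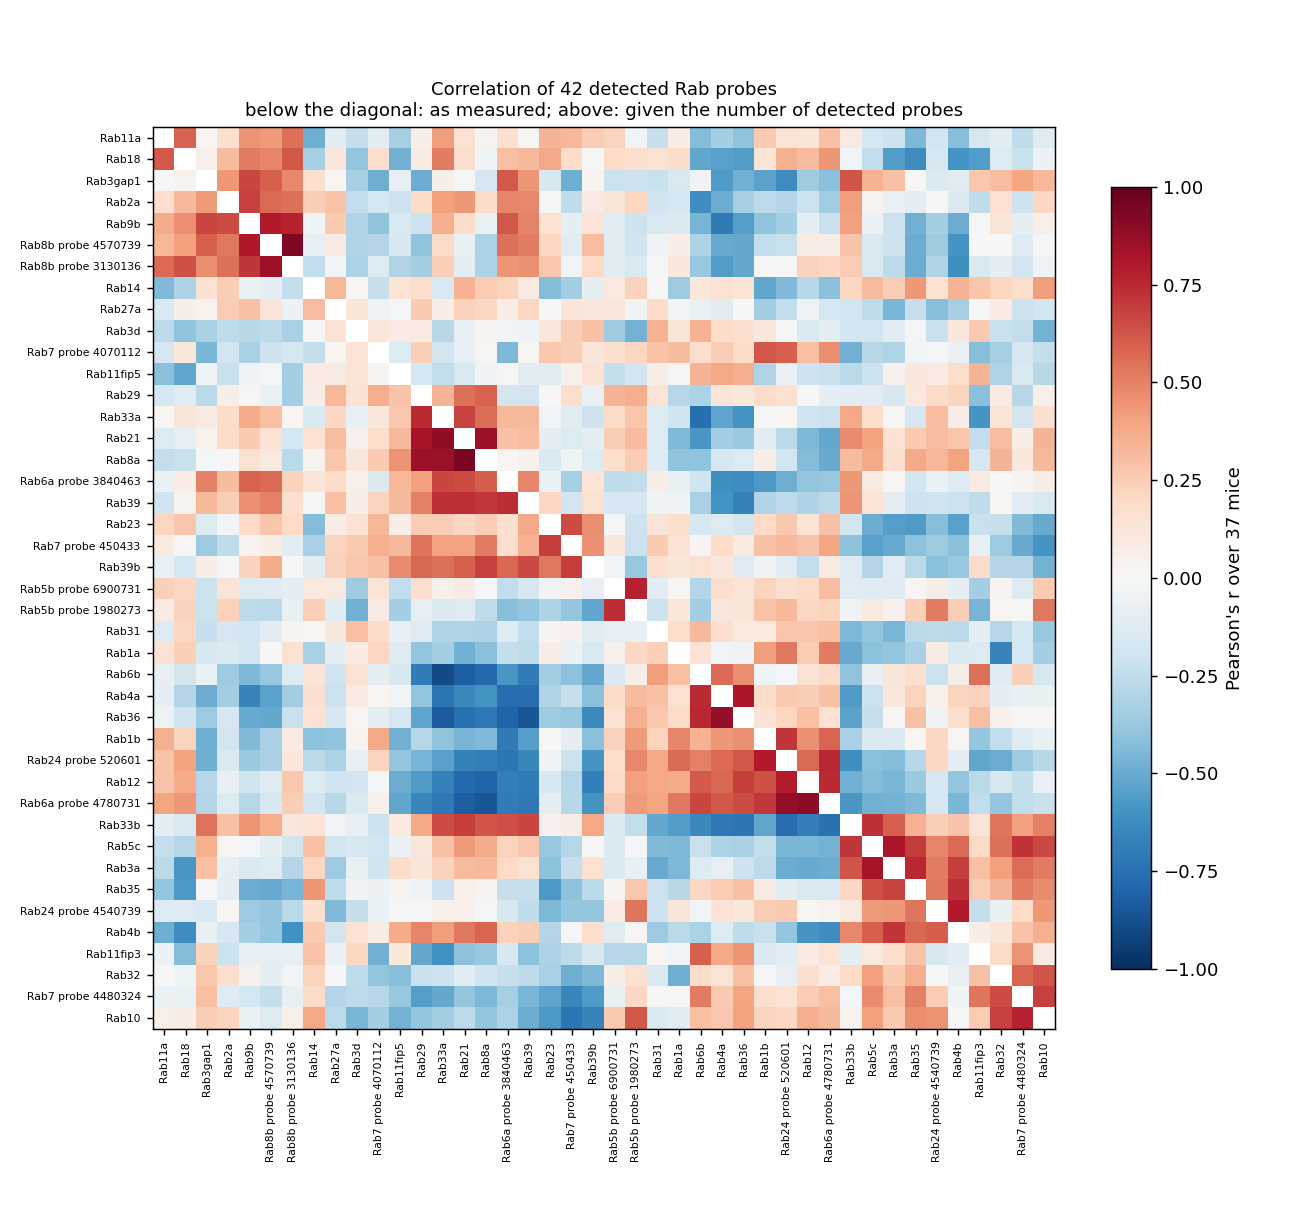
Pearson's r over 37 mice for each pair of 42 detected Rab probes (without the 5 for which no pooled r is given), as measured below the diagonal and given the number of detected probes above it, from −1 (blue) to 1 (red), with probes ordered by average linkage. A block of *Rab33a*, *Rab21* and *Rab8a* opposes *Rab6b*, *Rab4a* and *Rab36*, and a block of *Rab33b*, *Rab5c*, *Rab3a*, *Rab35* and *Rab4b* stays visible above the diagonal.

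Markers of other cell types moved with some Rab probes. Each marker score is the mean of standardized values of the detected markers, and slopes are log2 changes per unit of score. Among the detected astrocyte markers, *Gfap* was detected on 25 arrays, *Glul* on 22, and *S100b* and *Slc4a4* probe 1850040 on 21 each. Others, such as *Gja1*, *Slc1a3* and *Aqp4*, were detected on all 37. The astrocyte score (9 of 12 marker probes detected, from −1.72 to 0.64 over mice) was itself higher on arrays with more detected probes (r = 0.77). With it 24 of 47 Rab probes passed, against 54.3% of all probes, 16 higher and 8 lower, against 31.5% and 22.8%. Given the number of detected probes 0 passed (2 unadjusted, 1166 of all 8532 probes), against 0.0234%. *Rab10* had a slope of 1.04 ± 0.18 on this score (SE, adjusted p = 1.62e-05), and nearly the same, 1.03 ± 0.28, given that number, without passing (adjusted p = 0.146).

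The microglia score (8 of 10 marker probes detected, from −1.08 to 1.16) was lower on arrays with more detected probes (r = −0.57). With it 20 of 47 Rab probes passed, against 53.1% of all probes, 10 higher and 10 lower, against 25.9% and 27.2%. Given the number of detected probes 11 passed, against 25.1%, 8 higher and 3 lower, against 15.5% and 9.57%. *Rab5c* had a slope of 0.54 ± 0.12 (adjusted p = 0.000228) and 0.62 ± 0.14 given that number (adjusted p = 0.00157). *Rab21* had 0.74 and 0.43, *Rab8a* 0.76 and 0.32, and *Rab33a* 0.50 and 0.28, all past the threshold in both fits. Of the defining microglia genes, *C1qa*, *C1qb*, *C1qc* and *Trem2* were detected on all 37 arrays, and the *P2ry12* probe on none. The part of microglia in these values was not tested.

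The endothelial score (8 of 12 marker probes detected, from −1.48 to 0.96) gave 8 of 47 Rab probes, against 22.9% of all probes, 4 higher and 4 lower, against 11.7% and 11.3%. Of the higher, *Rab4b* had the smallest p-value (0.44 ± 0.12, adjusted p = 0.00997) and *Rab8a* (0.55) and *Rab21* (0.53) the larger slopes, and the lowest was *Rab6a* probe 4780731 (−1.72 ± 0.44, adjusted p = 0.00697). Given the number of detected probes 4 passed, *Rab4b* and *Rab14* higher and *Rab8b* probe 3130136 and *Rab6a* probe 4780731 lower, against 11.7% of all probes, or 6.28% higher and 5.41% lower. The oligodendrocyte score (8 of 10 marker probes detected) gave 0 of 47, against 1.61% of all probes (12 unadjusted, against 2334 of all 8533). Given the number of detected probes it gave *Rab32* lower (−0.50) and *Rab6a* probe 4780731 higher (0.74). Of all probes 2.2% passed there, 0.914% lower and 1.29% higher. The thalamus score (8 of 12 marker probes detected) gave 0 of 47 (0 unadjusted, 163 of all 8533 probes), against 0.0469%. With arrays only centred on their median, 43 to 45 of 47 Rab probes passed with each of the 5 scores, all higher, against 87.3% to 93.4% of all probes.

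Few Rab probes differed between BeadChips. Between chip sets 0 of 47 Rab probes differed in limma (2 unadjusted, 796 of all 8541 probes), against 0% of all probes. The 2 were *Rab1b*, from 6.47 through a median of 6.85 to 8.73 in set B and from 5.41 through 6.63 to 7.51 in set A (difference 0.47 ± 0.20, SE, adjusted p = 0.516), and *Rab15*, from 12.41 through 12.59 to 12.70 in set B and from 11.37 through 12.40 to 12.77 in set A (difference 0.31 ± 0.13, adjusted p = 0.516). The ranges of both sets overlap for both, and the low *Rab15* mice all lay in set A. Among the 13 chips 1 Rab probe differed, *Rab7* probe 4480324 (adjusted p = 0.046), against 0.796% of all probes. It missed the threshold when arrays were only centred on their median (adjusted p = 0.191). Its chips had medians from 9.33 (3 arrays) to 10.52 (5 arrays), and neighbouring chips overlapped.

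Genes that act on or with Rabs, effectors among them, were followed as a list of 30 detected genes with 33 probes. With *Rab3a* 15 of 33 passed, against 28.6% of all probes, 4 higher and 11 lower, against 14.4% and 14.3%. Lower with more *Rab3a* were *Vps41* (−0.73 ± 0.12, SE, adjusted p = 5.81e-05), a part of the tether that meets Rab7 membranes, the Golgi tether *Uso1* (−0.46 ± 0.10), *Rabggtb* (−0.38 ± 0.09), a subunit of the lipid transferase of Rabs, and the retromer subunit *Vps35* (−0.58 ± 0.15). Higher were the GTPase-activating protein *Tbc1d10b* (0.38 ± 0.08, adjusted p = 0.00118), the *Rab5* exchange factor *Rabgef1* (0.21 ± 0.06), and *Doc2a* and *Doc2b*, calcium sensors of vesicle release. With arrays only centred on their median 28 of 33 passed with *Rab3a*, all higher, against 89.8% of all probes, so no lower call was left. In that setting 2 passed with *Ly6a*, both higher, against 3.92% of all probes, all higher. With the number of detected probes 32 passed there, 31 higher and 1 lower, against 91.9% of all probes, 90.5% higher and 1.43% lower. With *Ly6a* 19 of 33 passed, which is 57.6% against 56.6% of all probes. Of these 6 were higher and 13 lower, against 24.1% and 32.5% of all probes. Given the number of detected probes 0 passed with *Ly6a*, against 0.0937%. Both probes of *Rabac1*, an acceptor of prenylated Rabs, had positive slopes on *Ly6a* (0.47 and 0.35), while *Dennd1a*, an exchange factor of *Rab35*, had −0.61, and *Rims2*, an effector of *Rab3* at the active zone, −0.62. With the number of detected probes 24 of 33 passed, against 67.0% of all probes, 15 higher and 9 lower, against 37.6% and 29.4%, *Rabac1* probe 2030435 at −0.41 and *Rims2* at 0.61 per 1000 probes. Given the number of detected probes 12 of 33 passed with *Rab3a*, against 25.3% of all probes. Of these 3 were higher and 9 lower, against 14.0% and 11.3%. With the normalized values of the authors 14 passed with *Rab3a*, against 20.9%, 4 higher and 10 lower, against 11.2% and 9.61%. The median slope of the list was −0.16 on *Rab3a*, against 0.02 over all probes. It was 0.0052 given the number of detected probes and −0.08 with the normalized values of the authors, against 0.02 and 0.01. On *Ly6a* it was −0.05, against −0.04.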

How the data were processed

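RNA from the left hippocampus of 37 female CSS15F2 mice was hybridised to MouseRef-8 V1.1 BeadChips of Illumina, with 1 array for each mouse. The authors extracted intensity values with background correction in BeadStudio 3.2.3, and deposited them on a linear scale without normalization between arrays. Of these intensity values 30.8% were negative. Each intensity comes with a deposited detection score that rises with detection, so that subtracting it from 1 gave a detection p-value. A further deposited table holds log2 values, for which the authors applied the lumi package (variance stabilization, then robust spline normalization). It served as an alternative. The probes of both deposited tables were matched by their ranks over the 37 arrays (24613 of 24613 matched). Gene names came from the platform (20985 probes with 1 symbol, 1 with several, 3627 with none), and that of *Ly6a* from the probe identifiers of the paper.

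Background was corrected per array with the nec function (limma 3.58.1, R 4.3.3), which infers it from detection p-values, with an offset of 16. Arrays were then quantile normalized and values converted to log2. A probe entered the tests where its detection p-value was below 0.01 for 19 or more of 37 arrays. Slopes and differences were fitted with limma (lmFit and eBayes) across all of these, two-sided, with Benjamini-Hochberg adjustment over all of them. Probes used as a regressor were left out of its count. Precision is limited by how many arrays there are and by how far a signal lies above background. The fits were tested on simulated data. Correlations are given without p-values.

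Values were given in full for up to 6 called probes of smallest adjusted p-value in each direction with *Ly6a* and *Rab3a*, up to 4 in the other fits, the probes of largest and smallest SD, the Rab3, Rab5, Rab6, Rab11 and Rab27 subfamilies, genes with several detected probes and the most and least correlated pairs. Other genes named were chosen after their values were seen. The members, roles, marker lists and the list of genes that act on or with Rabs were chosen with earlier results of these data known. Alternatives were the normalized values of the authors, median centring without quantile normalization, an offset of 50, other detection filters, the chip as a fixed or random block (consensus correlation 0.12), the number of detected probes as a covariate, each chip set alone, and leaving out the 5 arrays with the fewest detected probes.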

Additional observations from a re-analysis of the deposited data

How the results depend on the processing

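Most values kept their direction and their side of the threshold. Of 363 alternative values for named probes 259 did so, 78 kept their direction but missed the threshold, and 26 reversed, most of these with arrays only centred on their median. The cause was not tested.

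With median centring, 0 Rab probes passed with *Ly6a* (3.92% of all probes), 42 with *Rab3a* (89.8%), 45 with the number of detected probes (91.9%), 45 each with the oligodendrocyte, astrocyte and endothelial scores (90.9%, 93.4% and 93.0%) and 43 each with the microglia and thalamus scores (90.5% and 87.3%). Among chips 3 differed (1.80%), not including *Rab7* probe 4480324, and the median SD was 0.69. Slopes that reversed under it were, on *Rab3a*, *Rab18* (0.49), *Rab12* (0.48), *Rab6a* probe 4780731 (0.85), *Rab24* probe 520601 (0.73), *Rab1a* (0.40) and *Rab31* (0.55). On the number of detected probes they were *Rab8a* (0.075), *Rab21* (0.14), *Rab39b* (0.057) and *Rab33a* (0.21). On the astrocyte score they were *Rab39b* (0.090), *Rab8a* (0.23), *Rab39* (0.24) and *Rab21* (0.37), on the microglia score *Rab6b* (0.74), *Rab11b* (0.52), *Rab6a* probe 4780731 (0.89) and *Rab15* (0.63), and on the endothelial score *Rab6a* probe 4780731 (1.29), *Rab12* (0.73), *Rab8b* probe 3130136 (0.65) and *Rab11a* (0.30).

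With the number of detected probes as a covariate, 0 passed with *Ly6a* (0.0937% of all probes) and 0 with the astrocyte score (0.0234%). There 11 passed with the microglia (25.1%), 4 with the endothelial (11.7%) and 2 with the oligodendrocyte score (2.2%). On the astrocyte score *Rab6a* probe 4780731 (−0.093), *Rab8a* (0.13) and *Rab21* (0.19) reversed. Within chips 20 passed with *Rab3a* (48.1% of all probes) and 3 with the endothelial score (7.14%). In chip set B alone, with fewer arrays, 0 passed with *Ly6a* (0% of all probes), 4 with *Rab3a* (6.14%) and 8 with the number of detected probes (26.1%), and the *Ly6a* slope of *Rab39* reversed (−0.012). In chip set A alone 8 passed with *Rab3a* (1367 of all 8540 probes). Among probes detected on all 37 arrays, a smaller set, 11 passed with *Ly6a* (56.2%). With the normalized values of the authors 4 differed among chips (0.902%) and 1 passed with the oligodendrocyte score (2.14%), and with probes detected on at least 1 array 5 differed among chips (3.71%). No paired analysis was possible because the mice form 1 group and share no replicate numbers.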
